A study of Mus musculus with 7 samples.

Results

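The genes described here encode nucleus-encoded subunits of the 5 oxidative phosphorylation complexes, chosen by name and read in mouse lung. They were the protein-coding genes whose GENCODE vM21 symbols follow the Nduf, Sdh, Uqcr, Cox4 to Cox8 and Atp5 naming patterns. The rule gave 85 of the 55401 genes in the count table, of which 37 belong to complex I, 4 to complex II, 8 to complex III, 18 to complex IV and 18 to complex V. A filter on low counts kept 82 of them for testing. The 3 that were not tested were Cox7b2, with 2 reads in mouse BLM 4 and none elsewhere, Cox8c, with 0 reads, and a second Atp5o identifier, with 0 reads. All 85 had the same GRCm38 coordinates in the table and in GENCODE vM21. The rule works on names, so it also takes in Atp5s, which was named as an ATP synthase factor but is not a part of the core enzyme. It keeps Ndufa4 with complex I, although the protein was later assigned to complex IV. Subunits with names outside the patterns are left out, so the sets and their sums need not cover a whole complex.

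Lungs came from male C57BL/6 mice that were aged 6 to 8 weeks when given bleomycin, and 1 library was made from the right lobes of each mouse. Both groups had been given bleomycin, an antibiotic that damages DNA and is used to bring on lung fibrosis, so the series holds no uninjured mouse. The 4 BLM mice received bleomycin alone. The sample records describe time in an unpressurized chamber for them, whereas the Supplementary methods call them untreated. The 3 BLM+HBO mice also breathed hyperbaric oxygen (HBO), which is oxygen under raised pressure, at 2.5 ATA for 90 min per day over 14 days from day 7. All lungs were taken on day 21. The libraries held between 18157161 and 26365969 counted reads. Lung marker genes were abundant in every library, with Scgb1a1, a club cell secretory protein, between 4844 and 17060 CPM and Sftpc, a surfactant protein of alveolar type 2 cells, between 4549 and 16260 CPM. CPM scales the reads of a gene to the size of its library after TMM normalization. In bulk lung tissue, a change in the number of cells of a type and a change in the RNA of each cell cannot be told apart.

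Oxidative phosphorylation passes electrons from NADH and succinate through complexes I to IV of the inner mitochondrial membrane to oxygen, and complex V uses the proton gradient that this builds to make ATP. Most subunits are encoded in the nucleus, and a small set, including the catalytic core of complex IV, is encoded by mitochondrial DNA. Several small subunits of complex IV exist as tissue isoforms. Cox6a2, Cox7a1 and Cox8b are the forms of heart and skeletal muscle, and Cox6a1, Cox7a2 and Cox8a are their ubiquitous counterparts. Cox4i2 is the form of subunit 4 that is characteristic of lung, and Cox6b2 and Cox8c are best known from testis. In mice, heart muscle cells also form a sleeve around pulmonary veins inside the lung.

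The 3 muscle isoforms of complex IV were the member genes with the largest differences between the groups, and all 3 were higher in BLM+HBO. The remaining 79 tested members lay between log2 fold changes of -0.24 and 0.32. Promoters of the muscle isoforms are shown because these genes carry the difference, and those of their ubiquitous counterparts are shown for comparison. They were taken from RefSeq on GRCm38.p6, from 180 bases before to 20 bases after the transcript start, 5′ to 3′ on the strand of the gene. Cox6a2 had no entry in the promoter table. Capitals mark matches to 5 motifs: the NRF1 motif (GCGCA and GCGC with any 1 base between them) and the ETS motif (CCGGAAG), both known from promoters of respiratory chain genes, the muscle E-box (CAGCTG), the MEF2 motif (CTA and TAG with any 4 bases between them) and the TATA box (TATAAA). The TATA box was searched on the strand of the gene and the others on both strands. A MEF2 match can also hold a TATA box.
Cox7a1 promoter, chr7:30183964-30184163, plus strand: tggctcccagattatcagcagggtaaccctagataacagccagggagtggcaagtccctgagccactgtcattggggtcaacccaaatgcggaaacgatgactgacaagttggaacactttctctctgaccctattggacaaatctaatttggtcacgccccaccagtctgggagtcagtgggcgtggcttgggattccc
Cox8b promoter, chr7:140900427-140900626, minus strand: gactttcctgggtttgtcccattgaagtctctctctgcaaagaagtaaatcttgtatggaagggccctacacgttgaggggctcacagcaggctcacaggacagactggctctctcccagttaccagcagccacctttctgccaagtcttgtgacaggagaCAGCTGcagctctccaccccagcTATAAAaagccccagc
Cox6a1 promoter, chr5:115348962-115349161, minus strand: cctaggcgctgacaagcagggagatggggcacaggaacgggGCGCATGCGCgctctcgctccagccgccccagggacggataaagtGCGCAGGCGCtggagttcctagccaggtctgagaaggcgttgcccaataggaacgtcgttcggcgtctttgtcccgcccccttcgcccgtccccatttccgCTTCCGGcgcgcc
Cox7a2 promoter, chr9:79759859-79760058, minus strand: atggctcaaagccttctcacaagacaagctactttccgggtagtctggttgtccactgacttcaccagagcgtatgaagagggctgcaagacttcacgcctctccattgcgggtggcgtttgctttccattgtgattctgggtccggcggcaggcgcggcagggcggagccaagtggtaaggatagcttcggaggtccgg
Cox8a promoter, chr19:7217597-7217796, minus strand: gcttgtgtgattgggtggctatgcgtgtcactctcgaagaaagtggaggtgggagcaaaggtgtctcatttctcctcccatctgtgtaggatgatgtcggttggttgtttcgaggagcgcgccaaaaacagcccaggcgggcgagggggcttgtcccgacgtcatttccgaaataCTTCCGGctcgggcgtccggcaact

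Matches to the 5 motifs were also counted across whole promoter windows of 300 bases, for the member genes and for all promoters. Of 85 members, 67 had a promoter in the table. The NRF1 motif was in 16 of these 67 (23.9%) and in 4.60% of all 32851 promoters. The ETS motif was in 15 of the members (22.4%) and in 8.86% of all promoters. The muscle E-box was in 6 members (8.96%, against 16.3% of all promoters), the TATA box in 3 (4.48% against 8.32%) and the MEF2 motif in 1 (1.49% against 3.69%). The muscle isoform Cox8b held the E-box 2 times and the TATA box 1 time in its window and neither of the respiratory chain motifs. Its counterpart Cox8a held the ETS motif 2 times. Cox7a1 and its counterpart Cox7a2 each held 0 matches to any of the 5 motifs, so that pair showed no such contrast. Cox6a1 held the NRF1 motif 2 times and the ETS motif 1 time, and Cox6a2 had no promoter to set beside it. These are matches of letters and were not tested as binding sites. The shares of members and of all promoters were not tested against each other. The member counts of the E-box, the TATA box and the MEF2 motif are small.

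Cox6a2 (cytochrome c oxidase subunit 6A2, ENSMUSG00000030785.8, chromosome 7, 128205435 to 128206387, GRCm38) is a small subunit of complex IV in heart and skeletal muscle. It had 45, 105, 72 and 130 reads in the BLM mice and 437, 300 and 328 reads in the BLM+HBO mice. On the CPM scale, its levels were 2.48, 5.92, 3.95 and 6.85 in BLM and 23.3, 14.4 and 12.3 in BLM+HBO. Every BLM+HBO mouse was above every BLM mouse, and BLM+HBO 1 was the highest. The mean was 4.80 ± 1.96 CPM in BLM (SD, n = 4) and 16.6 ± 5.83 CPM in BLM+HBO (SD, n = 3). The log2 fold change was 1.79 (standard error 0.35, 95% interval 1.02 to 2.56). With edgeR's quasi-likelihood test the unadjusted P was below 0.05, and after Benjamini-Hochberg adjustment over 17465 genes the adjusted P was 0.423. Over the alternatives the adjusted P, from edgeR, limma or DESeq2, lay between 0.000403 and 0.802, and DESeq2 gave 0.000639. Of the exon bases of Cox6a2, 10.3% overlap exons of Itgad, and the counting left out reads that fell on both genes.

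Cox7a1 (ENSMUSG00000074218.3, chromosome 7, 30184144 to 30186078) is the muscle form of subunit 7A. Its counts were 23, 11, 19 and 36 in BLM and 95, 64 and 58 in BLM+HBO, which is 1.27, 0.620, 1.04 and 1.90 CPM against 5.06, 3.06 and 2.18 CPM. The groups did not overlap, but BLM+HBO 3 was close to BLM 4. The log2 fold change was 1.49 (standard error 0.42), with an unadjusted edgeR P below 0.05 and an edgeR adjusted P = 0.423. Its adjusted P from edgeR, limma or DESeq2 lay between 0.0609 and 0.802 over the alternatives.

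Cox8b (ENSMUSG00000025488.9, chromosome 7, 140898945 to 140900446), the muscle form of subunit 8, was the least abundant tested member of complex IV. It had 11, 4, 19 and 15 reads in BLM and 64, 53 and 11 in BLM+HBO, or 0.606, 0.225, 1.04 and 0.790 CPM against 3.41, 2.54 and 0.412 CPM. BLM+HBO 1 and BLM+HBO 2 were above all BLM mice, and BLM+HBO 3 lay inside the BLM range. The log2 fold change was 1.64 with a standard error of 0.68. The unadjusted edgeR P was below 0.05 and the edgeR adjusted P was 0.452, between 0.161 and 0.802 over the alternatives by edgeR, limma or DESeq2. Without BLM+HBO 1 the log2 fold change was 1.12 and its unadjusted P was above 0.05, as it was without BLM 1, BLM 2, BLM 4 or BLM+HBO 2, with limma and with a replicate block.

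**Figure D1:**
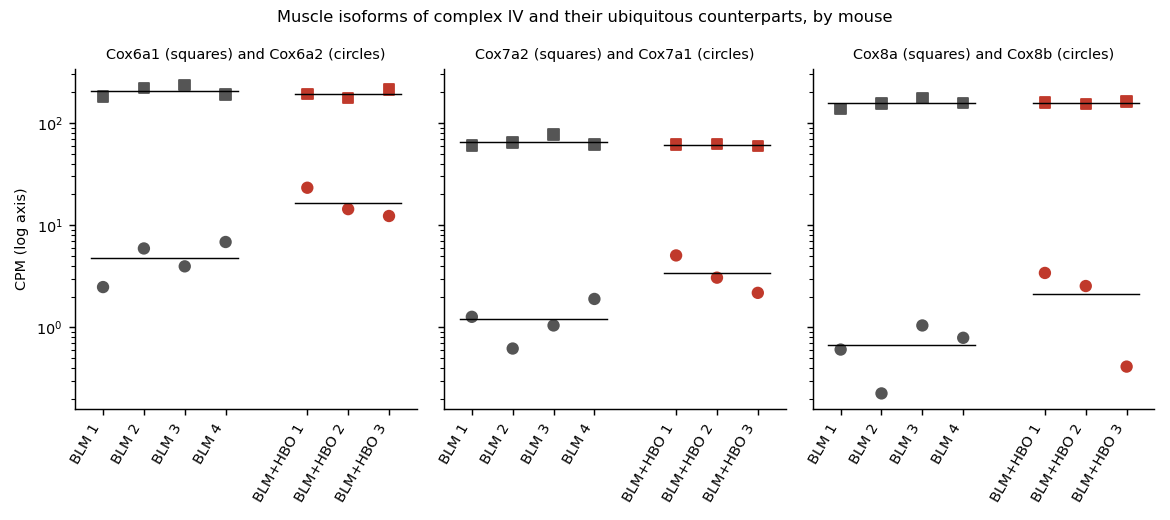
CPM on a log axis in each mouse for the muscle isoforms (circles) and their ubiquitous counterparts (squares), with black lines at the group means and BLM in grey, BLM+HBO in red. The Cox6a2 circles of BLM+HBO start at 12.3 CPM, above the highest BLM circle at 6.85 CPM, while BLM+HBO 3 falls to 0.412 CPM for Cox8b, and the squares of the groups overlap.

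The ubiquitous counterparts did not pass the test. Cox6a1 averaged 207 ± 26.3 CPM in BLM (SD, n = 4) and 194 ± 18.6 CPM in BLM+HBO (SD, n = 3), with a log2 fold change of -0.09 (95% interval -0.38 to 0.20). For Cox7a2 the log2 fold change was -0.10 (95% interval -0.35 to 0.15), and for Cox8a it was 0.02 (95% interval -0.23 to 0.26). For these 3 genes the groups overlapped.

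Because the isoforms have different lengths, their shares were computed from levels per length, in RPKM, which is the CPM per kilobase of exon. Cox6a2 made up 1.39%, 2.69%, 1.69% and 3.59% of the summed RPKM of Cox6a1 and Cox6a2 in the BLM mice, and 11.1%, 7.76% and 5.62% in the BLM+HBO mice. For Cox7a1 the share of the subunit 7A pair was 3.18% ± 1.52 in BLM (SD, n = 4) and 8.87% ± 3.37 in BLM+HBO (SD, n = 3). For Cox8b it was 0.717% ± 0.330 (SD, n = 4) and 2.25% ± 1.62 (SD, n = 3). The groups stood apart for the first pair of shares and for the second, and overlapped for Cox8b. In both groups the ubiquitous form made up most of each pair.

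The other tissue isoforms gave no such difference. Cox4i2 (ENSMUSG00000009876.13, chromosome 2, 152754173 to 152765037), the lung form of subunit 4, had 35.2, 38.4, 41.9 and 48.4 CPM in BLM and 51.1, 36.0 and 43.0 CPM in BLM+HBO, and the groups overlapped. Its log2 fold change was 0.08 (standard error 0.15, edgeR adjusted P = 0.882) and turned to -0.05 without BLM+HBO 1. It made up 21.0% ± 3.67 (SD, n = 4) of the RPKM of the subunit 4 pair in BLM and 23.3% ± 2.73 in BLM+HBO (SD, n = 3). Cox6b2 averaged 13.6 ± 3.37 CPM in BLM (SD, n = 4) and 16.99 ± 3.904 CPM in BLM+HBO (SD, n = 3), with a log2 fold change of 0.32 (standard error 0.22, edgeR adjusted P = 0.627). Its counterpart Cox6b1 was at -0.06, and at 0.06 without BLM 3.

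The heart muscle marker genes were higher in the same direction as the muscle isoforms. Of 23 listed genes 22 were tested, all 22 had a log2 fold change above 0, and 18 had an unadjusted edgeR P below 0.05, as had 5.11% of all tested genes in this direction. Their median log2 fold change was 1.78, beside 0.01 over all 17465 tested genes. Mb, the oxygen-binding myoglobin, had 0.826 to 2.37 CPM in BLM and 37.1, 16.9 and 6.41 CPM in BLM+HBO. Actc1, the cardiac actin, had 12.3 to 29.1 CPM in BLM and 116, 79.2 and 50.8 CPM in BLM+HBO. At an adjusted P below 0.05, edgeR and limma called 0 of the list, as they called 0 of all tested genes. DESeq2 called 10 of the list, beside 0.779% of all genes with a DESeq2 adjusted P. No gene of the list was at 0 in all mice. The number at P below 0.05 was 12 without BLM+HBO 1 and between 16 and 20 without any other mouse.

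The summed CPM of the heart list was 139 to 247 in BLM, 927 in BLM+HBO 1, 721 in BLM+HBO 2 and 229 in BLM+HBO 3. BLM+HBO 3 thus lay inside the BLM range for the sum of the list, as it did for Cox8b, and above all BLM mice for Cox6a2. The sum follows the most abundant genes. In BLM+HBO 3, most genes of the list lay inside or below the BLM range. Among them were Myh6 (34.5 CPM, 12.3 to 34.9 in BLM) and Tnnt2 (25.4 CPM, 20.9 to 55.0 in BLM). Myl4 (15.6 CPM, 8.70 to 18.8 in BLM) and Tnni3 (17.9 CPM, 4.41 to 24.2 in BLM) were inside it too. A smaller part of the list was above every BLM mouse there, including Mb, Actc1 and Ttn (6.15 CPM, 3.13 to 5.16 in BLM). Expressed against the list, Cox6a2 was at 1.78% to 2.86% of the summed heart CPM in BLM, at 2.51% in BLM+HBO 1, 1.99% in BLM+HBO 2 and 5.36% in BLM+HBO 3. For Cox7a1 the same ratio was 0.300% to 0.909% in BLM and 0.545%, 0.425% and 0.948% in BLM+HBO. For Cox8b it was 0.109% to 0.622% in BLM and 0.367%, 0.352% and 0.180% in BLM+HBO. The part of heart muscle RNA in the difference of the 3 isoforms was not tested.

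**Figure D2:**
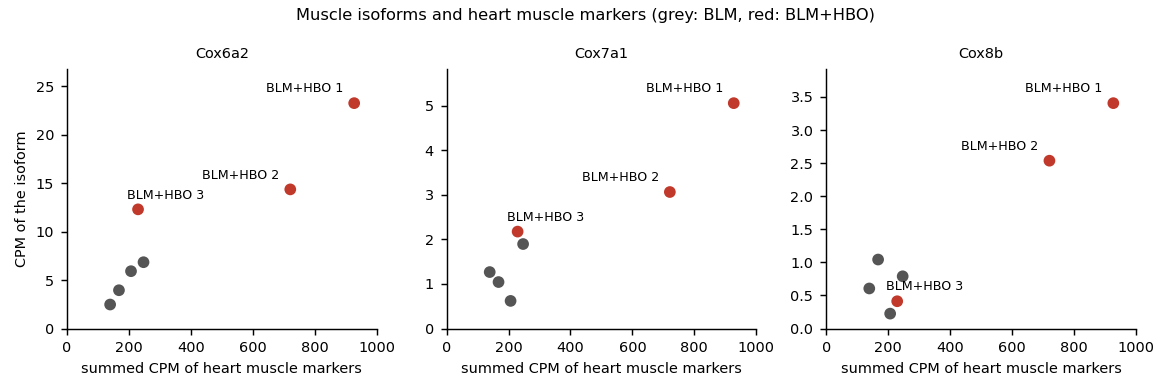
CPM of each muscle isoform against the summed CPM of the heart muscle markers, with 1 point per mouse, BLM in grey and BLM+HBO in red. BLM+HBO 1 and BLM+HBO 2 lie at sums of 927 and 721, whereas BLM+HBO 3 lies at 229, and of the 3 isoforms Cox6a2 stands farthest above the BLM points there, at 12.3 CPM.

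Lists of other cell types were read in the same way, and their part in the differences of the members was not tested. The skeletal muscle list summed to 9.80 to 23.5 CPM in BLM and 16.4 to 18.5 CPM in BLM+HBO. Mybpc2 was the largest single part (2.37 to 15.8 CPM in BLM, 7.08 to 10.1 CPM in BLM+HBO), whereas the myosin Myh1 reached at most 0.579 CPM. Of the 12 skeletal muscle genes 7 were tested, and 0 were higher at an edgeR P below 0.05 (0 by DESeq2 and 1 by limma). The skeletal actin Acta1 was lower at this P (log2 fold change -1.01, edgeR adjusted P = 0.438), as were 5.54% of all tested genes. Of 6 brown adipocyte genes 2 were tested, and the list summed to 5.07 to 10.5 CPM in BLM and 3.30 to 7.75 CPM in BLM+HBO. Dio2 was its largest single part (3.83 to 8.68 and 1.54 to 6.37 CPM), whereas Ucp1 reached at most 0.287 CPM. The general adipocyte list summed to 52.6 to 84.4 CPM and 50.9 to 77.8 CPM. Most of this was Lipe (46.9 to 77.5 and 42.2 to 61.9 CPM), whereas Adipoq reached at most 0.788 CPM. These 3 sums therefore follow single genes. Of the 5 tested general adipocyte genes 4 were above 0, with a median log2 fold change of 0.57. Of these, the lipid droplet protein Plin4 was higher at an edgeR P below 0.05, as were 5.11% of all tested genes. A call of 1 gene in lists this short cannot be told from these shares. The 9 pericyte genes, listed because Cox4i2 is known from pericytes, summed to 558 to 764 CPM and 482 to 726 CPM with none at P below 0.05 by edgeR and 1 lower by DESeq2 and by limma. Of 11 lung cell markers 10 were above 0, with a median log2 fold change of 0.31. At P below 0.05, 2 of them (Sftpa1 and Scgb1a1) were higher by edgeR, as were 5.11% of all tested genes, 3 by DESeq2 and 0 by limma. The list summed to 15480 to 28430 CPM in BLM and to 38000, 21930 and 46380 CPM in BLM+HBO 1, 2 and 3, so that BLM+HBO 1 and BLM+HBO 3 were above every BLM mouse.

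Outside the muscle isoforms, few members differed. In all, 3 of 82 tested members were higher in BLM+HBO at an unadjusted edgeR P below 0.05 (3.66%, beside 5.11% of all tested genes), and these were the muscle isoforms. The same 3 also passed the study thresholds of P below 0.05 and a fold change above 1.5 (3.40% of all tested genes were higher at these thresholds). At P below 0.05, 1 member, Ndufv3, was lower (1.22%, beside 5.54%), and 0 were lower past the study thresholds (2.89% of all genes). At an adjusted P below 0.05, edgeR and limma called 0 members, as for all genes in edgeR (0.00%), while DESeq2 called 1, Cox6a2 (0.779% of all genes with a DESeq2 adjusted P). With 82 members, 1 gene makes up 1.22%, and counts of 3 or fewer are too small to tell these shares from those over all genes. Without BLM 3, Ndufa5 of complex I was also higher at an unadjusted P below 0.05, which made 4 members, and this gene is named after its value was seen.

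The intervals of the members were narrow. For 76 of 82 members (92.7%) the 95% interval of the edgeR fold change lay within 1.5-fold either way, beside 47.1% of all tested genes. Members were also mostly abundant. Among genes with a mean of at least 20 CPM, the interval lay within 1.5-fold for 76 of 76 members and for 6707 of 8740 genes (76.7%). The median log2 fold change was -0.02 over the 82 members, with 34 above 0 and 48 below, and it turned to 0.06 without BLM 3 and to 0.002 with upper-quartile scaling. The summed level of all members was 7502 ± 683 CPM in BLM (SD, n = 4) and 7338 ± 217 CPM in BLM+HBO (SD, n = 3).

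**Figure D3:**
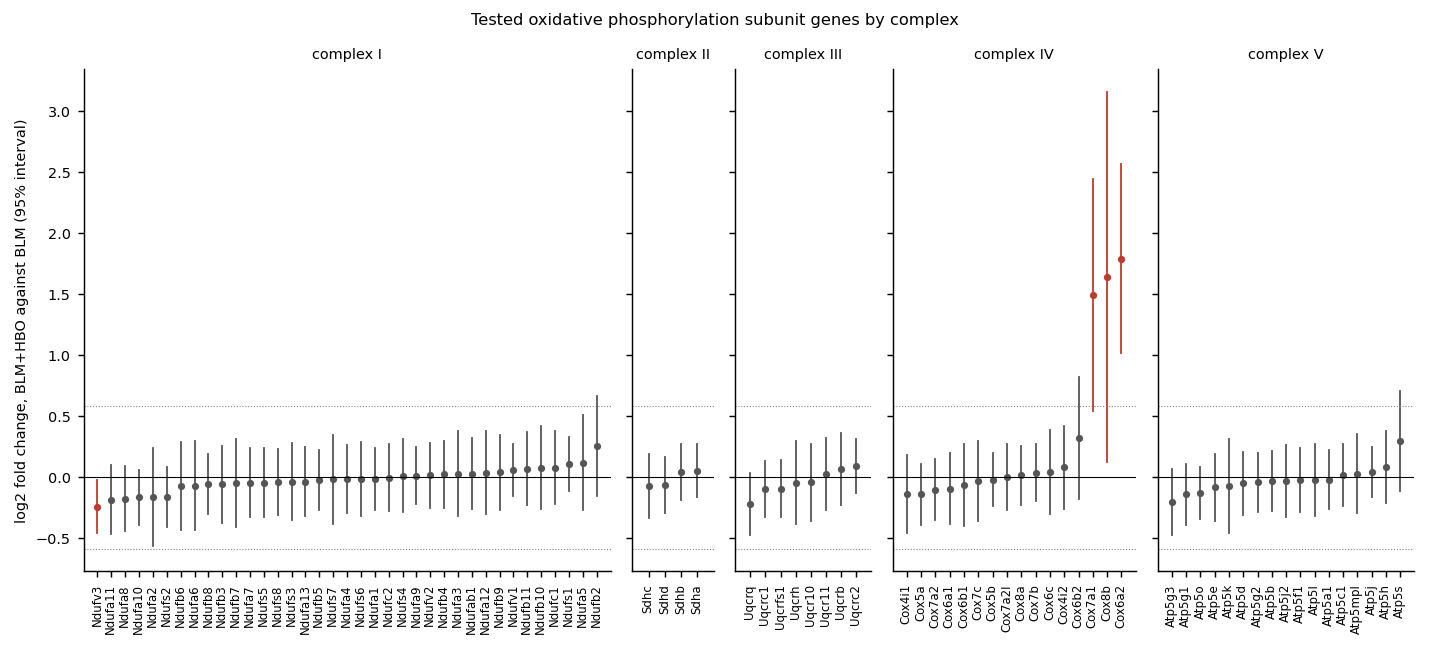
Log2 fold change of BLM+HBO against BLM for the 82 tested members, ordered within each complex, with 95% intervals from edgeR, dotted lines at 1.5-fold and red for unadjusted P below 0.05. The 3 muscle isoforms stand between 1.49 and 1.79, Ndufv3 is the red point below 0 at -0.24, and the remaining points lie between -0.22 and 0.32.

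Complex I, the NADH dehydrogenase, had the largest number of members and no shared direction. Of 37 tested genes 15 had a log2 fold change above 0 and 22 below, with a median of -0.02. Ndufv3 (ENSMUSG00000024038.17, chromosome 17, 31520115 to 31531331), an accessory subunit of the NADH-oxidizing arm, had 46.9, 46.8, 49.3 and 43.5 CPM in BLM and 39.7, 41.0 and 37.6 CPM in BLM+HBO. All BLM+HBO mice were below all BLM mice, and the nearest of them were BLM 4 at 43.5 CPM and BLM+HBO 2 at 41.0 CPM. Its log2 fold change was -0.24 (standard error 0.10). The unadjusted edgeR P was below 0.05 and the edgeR adjusted P was 0.4435, between 0.314 and 0.802 over the alternatives by edgeR, limma or DESeq2. The unadjusted P was above 0.05 in 8 of 15 alternatives, 5 of which left out a mouse, so that of the mice only BLM 4 and BLM+HBO 2 could be left out with it still below 0.05.

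The groups also did not overlap for 2 other complex I genes. Ndufa10, an accessory subunit, had 64.4, 74.9, 67.9 and 62.5 CPM in BLM and 61.1, 58.0 and 61.3 CPM in BLM+HBO, and its log2 fold change was -0.16 (standard error 0.10, edgeR adjusted P = 0.582). Ndufb2, an accessory subunit of the membrane arm, had 5.23, 5.97, 6.59 and 5.69 CPM in BLM and 7.29, 6.84 and 6.90 CPM in BLM+HBO, and its log2 fold change was 0.26 (standard error 0.18, edgeR adjusted P = 0.639). Over all complexes, 3 members had every BLM+HBO mouse above every BLM mouse (Ndufb2, Cox7a1 and Cox6a2, 3.66%, beside 4.05% of all tested genes). Another 3 had every BLM+HBO mouse below (Ndufa10, Ndufv3 and Atp5o, 3.66%, beside 4.72%). Ndufs1, the largest core subunit and a carrier of iron-sulfur clusters, had 64.8 ± 2.93 CPM in BLM (SD, n = 4) and 70.0 ± 5.49 CPM in BLM+HBO (SD, n = 3) (edgeR adjusted P = 0.710). Per length, the complex I genes ranged from Ndufb2 at 1.13 RPKM to Ndufa2 at 124 RPKM, as means over the 7 mice. The table lists 5628 exon bases for Ndufb2 over all of its transcripts, so its RPKM is not that of a single transcript.

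Complex II, which oxidizes succinate and is the only complex with all of its subunits encoded in the nucleus, had its 4 genes between log2 fold changes of -0.07 and 0.05. Sdha, the flavoprotein, had 207 ± 10.9 CPM in BLM (SD, n = 4) and 215 ± 4.77 CPM in BLM+HBO (SD, n = 3) (log2 fold change 0.05, edgeR adjusted P = 0.878). Sdhb, the iron-sulfur subunit, was at 0.04 (edgeR adjusted P = 0.913), and the membrane anchors Sdhc and Sdhd were at -0.07 (adjusted P = 0.857) and -0.06 (adjusted P = 0.850). Per length, Sdhd was the highest at 87.1 RPKM and Sdhb the lowest at 31.7 RPKM. The groups overlapped for all 4 genes.

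Complex III passes electrons from ubiquinol to cytochrome c. Of its 8 member genes 3 were above 0 and 5 below, with a median log2 fold change of -0.04, and 0 had an edgeR P below 0.05. Uqcrq, a small subunit near the ubiquinone site, had the smallest P of the complex, with 87.9, 94.97, 110 and 89.4 CPM in BLM and 77.2, 81.1 and 88.3 CPM in BLM+HBO. BLM+HBO 3 was just above the lowest BLM mouse. Its log2 fold change was -0.22 (standard error 0.11, edgeR adjusted P = 0.518). Of the core proteins, Uqcrc1 was at -0.10 (edgeR adjusted P = 0.762) and Uqcrc2 at 0.10 (adjusted P = 0.755), and the ubiquinone-binding Uqcrb was at 0.07 (adjusted P = 0.884). Per length, Uqcr10 was the highest at 112 RPKM and Uqcrc2 the lowest at 34.5 RPKM. For Uqcr10 the log2 fold change was -0.04, and 0.08 without BLM 3.

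Complex IV, the cytochrome c oxidase, held the 3 muscle isoforms at one end of its range. Without them, its 13 tested genes had a median log2 fold change of -0.02, with 6 above 0 and 7 below. Cox4i1, the common form of subunit 4, had 260, 330, 373 and 269 CPM in BLM and 287, 275 and 276 CPM in BLM+HBO (log2 fold change -0.14, edgeR adjusted P = 0.749). The BLM+HBO mice all lay inside the BLM range, and BLM 3 was the highest. Cox5a was at -0.14 (edgeR adjusted P = 0.673). Cox7b was at 0.04 (edgeR adjusted P = 0.924), and at -0.01 without BLM+HBO 2. Cox6a1 had the highest level per length of all members, 287 RPKM, followed by Cox8a at 254 RPKM, and Cox8b was the lowest tested member of the complex at 3.58 RPKM.

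Complex V, the ATP synthase, had 17 tested genes, 5 above 0 and 12 below, with a median log2 fold change of -0.03 and 0 at an edgeR P below 0.05. Atp5a1, a subunit of the catalytic head, was the most abundant per length at 169 RPKM and had 533 ± 25.0 CPM in BLM (SD, n = 4) and 526 ± 28.8 CPM in BLM+HBO (SD, n = 3). Its log2 fold change was -0.02 (95% interval -0.26 to 0.22). Atp5g1, Atp5g2 and Atp5g3 encode the same mature c subunit of the membrane ring. They were at -0.14, -0.04 and -0.20 in log2 fold change, and Atp5g3 had 176 ± 22.4 CPM in BLM (SD, n = 4) and 153 ± 9.90 CPM in BLM+HBO (SD, n = 3) (edgeR adjusted P = 0.577).

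Atp5o, the subunit that ties the catalytic head to the outer stalk, had 48.8, 47.5, 49.9 and 45.6 CPM in BLM and 44.9, 41.4 and 45.4 CPM in BLM+HBO. The groups did not overlap, but BLM 4 at 45.6 CPM and BLM+HBO 3 at 45.4 CPM were almost level. Its log2 fold change was -0.13 (standard error 0.10, edgeR adjusted P = 0.651). Exons of other genes cover 47.9% of its exon bases, among them those of the second Atp5o identifier, whose exon bases are all shared and which had 0 reads. Atp5h, a stalk subunit, was at 0.08 (edgeR adjusted P = 0.858). Of the tested genes of complex V, Atp5s had the highest fold change, a log2 fold change of 0.30 (standard error 0.18, edgeR adjusted P = 0.583), and the lowest by level per length, at 4.42 RPKM.

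Copies of subunit genes limit some of these counts, since the default counting left out reads that mapped to several places. For Atp5g2, 34.7% of the 100-base stretches of its transcripts were also found in transcripts of Gm10175 or Gm10231. For Cox7c the share was 16.2%, and for Ndufb4 it was 16.0%. Of the exon bases of Ndufb6, 39.0% overlap Smim27, and of those of Ndufa13, 29.98% overlap Tssk6. Levels of these genes are therefore uncertain in absolute terms.

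The members varied together between single mice, and this spread among the BLM mice was larger than the difference between the group means. The summed CPM of all members was 6814 in BLM 1, 7719 in BLM 2, 8358 in BLM 3 and 7118 in BLM 4, and 7586, 7248 and 7181 in BLM+HBO 1, 2 and 3. The BLM+HBO mice all lay between the lowest and the highest BLM mouse. Of the 79 tested members without the muscle isoforms, 64 (81.0%) had their highest BLM level in BLM 3, as had 29.8% of all tested genes. For 50 (63.3%) the lowest BLM level was in BLM 1, and the share over all tested genes was not computed for the lowest mouse. Among the BLM+HBO mice, BLM+HBO 1 was the highest for 35 of the 79 members (44.3%, beside 36.7% of all tested genes). Genes of one library share its depth and its RNA, so the members are not independent in this count.

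**Figure D4:**
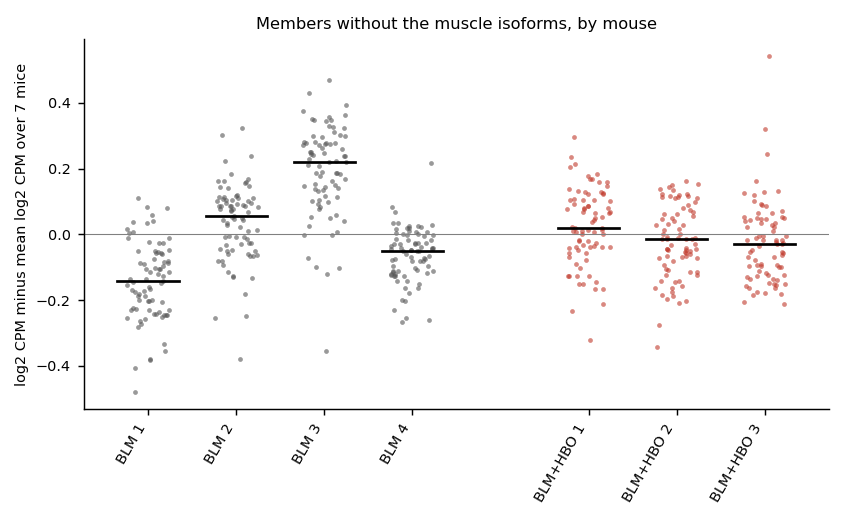
Log2 CPM of each of the 79 tested members without the muscle isoforms, minus its mean over the 7 mice, with 1 dot per gene, black lines at the medians, BLM in grey and BLM+HBO in red. The medians run from -0.14 in BLM 1 to 0.22 in BLM 3 and lie between -0.03 and 0.02 in the 3 BLM+HBO mice.

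The same order was seen in most complexes. Complex I summed to 1804 CPM in BLM 1 and 2349 CPM in BLM 3, complex III to 681 and 838 CPM, complex IV to 1350 and 1785 CPM, and complex V to 2498 and 2851 CPM. Complex II moved less, from 481 CPM in BLM 1 to 536 CPM in BLM 3, and BLM 2 was close at 532 CPM. In each complex the sums of BLM+HBO lay inside the range of the BLM mice.

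**Figure D5:**
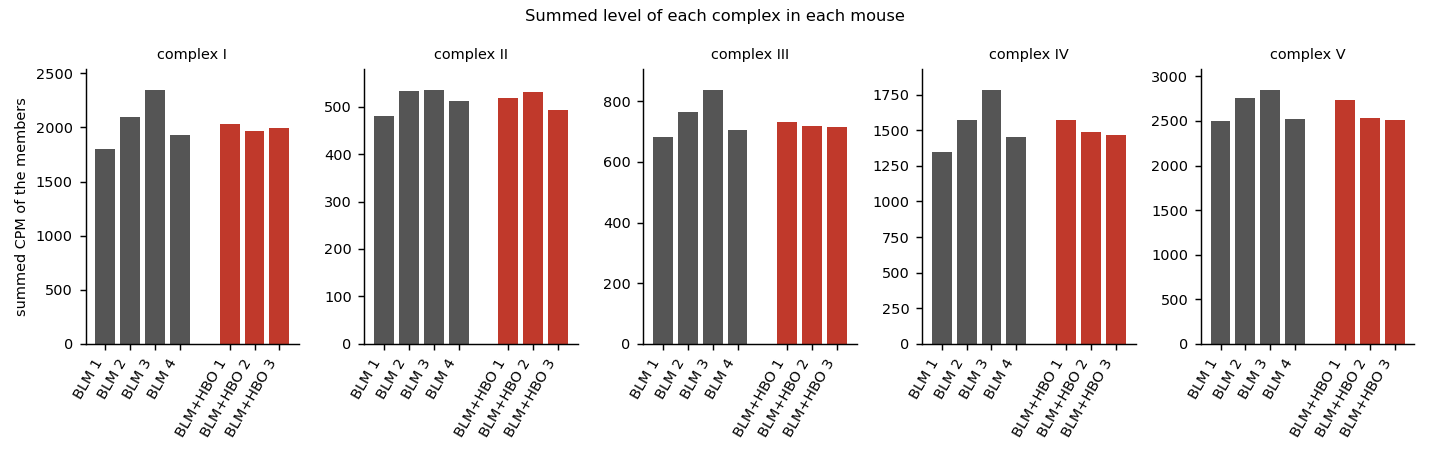
Bars from 0 show the summed CPM of the members of each complex in each mouse, BLM in grey and BLM+HBO in red. BLM 3 has the tallest bar in all 5 panels (2349 CPM for complex I), BLM 1 the lowest BLM bar, and the BLM+HBO bars lie between them.

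The difference between BLM 3 and BLM 1 varied with gene length. Among the 79 members, the median log2 ratio of BLM 3 to BLM 1 was 0.37 for 18 genes with under 1000 exon bases, 0.37 for 31 genes with 1000 to 2000 bases and 0.21 for 30 genes with 2000 bases or more. Over all genes tested in the same range of mean level it was 0.19, 0.25 and -0.04 in these length classes. The members were thus above the genes of like length in each class, as a description of 2 libraries. The part of length in the pattern was not tested further.

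The rest of the respiratory pathway gave no call between the groups. Of 45 listed assembly factors 43 were tested, 22 above 0 and 21 below, with a median log2 fold change of 0.02 and 0 at P below 0.05 by edgeR, DESeq2 or limma. Sco2 and Pet117 were at 0 in every mouse. Lyrm7, which matures the Rieske protein of complex III, had the smallest P (log2 fold change 0.54, standard error 0.27, edgeR adjusted P = 0.502). It had 1.98, 2.71, 2.196 and 3.32 CPM in BLM and 3.46, 3.59 and 4.09 CPM in BLM+HBO. Every BLM+HBO mouse was thus above every BLM mouse, as for 4.05% of all tested genes. The share of such genes in this list was not computed. Of 14 tricarboxylic acid cycle enzymes, which supply the NADH and succinate, 8 were above 0 and 6 below, with a median of 0.04 and 0 at P below 0.05 by any of the 3 tools. Idh2 had the smallest P (log2 fold change 0.18, edgeR adjusted P = 0.663).

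The regulators of mitochondrial gene expression were also without a call. Of 12 genes 7 were above 0 and 5 below, with a median log2 fold change of 0.03 and 0 at P below 0.05 by edgeR, DESeq2 or limma. Ppargc1a, the coactivator PGC-1alpha, had 3.86, 5.92, 3.40 and 3.37 CPM in BLM and 7.88, 5.03 and 5.14 CPM in BLM+HBO. The groups overlapped through BLM 2, and the log2 fold change was 0.54 (standard error 0.29, edgeR adjusted P = 0.533). Esrrg, a nuclear receptor of oxidative tissues such as heart, was at 0.50 (standard error 0.31, edgeR adjusted P = 0.588). Gabpb1, a subunit of the ETS-family factor GABP, was at 0.14 (edgeR adjusted P = 0.640).

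The 13 subunit genes of mitochondrial DNA are listed at 0 in every mouse, as are all 37 rows of the mitochondrial chromosome. The balance between nuclear and mitochondrial subunits could therefore not be compared from these counts.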

How the data were processed

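The authors isolated RNA from the right lung lobes, made NEBNext Ultra libraries, aligned reads to GRCm38 (HISAT2) and made counts by gene (featureCounts, default settings that ignore strand and leave out reads of several places or genes). The submitters' processing notes name version 2.2.0 for both. The annotation release was not given in the sources used here. The deposited values are raw counts per gene for 7 mice, beside a column of exon length that was used for RPKM. Symbols came from GENCODE vM21 (55141 of 55401 genes).

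The filterByExpr filter (at least 10 counts, total of at least 15) left 17465 genes, which were normalized by TMM and tested with edgeR 4.0.16 under R 4.3.3 (quasi-likelihood, BLM as reference, Benjamini-Hochberg adjustment over all tested genes); DESeq2, the tool of the study, served as an alternative. The common biological coefficient of variation was 0.222. Alternatives were DESeq2 1.42.0, limma-trend (limma 3.58.1), RLE and upper-quartile factors, no filter, at least 1 CPM in 3 mice, the robust fit, leaving out each mouse and a replicate block. The test was also run on simulated data in which genes varied independently of each other, unlike the members here. Libraries within a group differed by more than sampling noise, and each mouse was 1 replicate.

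The members and lists were chosen with earlier results of these data known. Full statistics went to tissue isoforms and their counterparts, to the 2 members of each complex with the smallest P in each direction, and to those with the highest and lowest RPKM. From other lists, up to 4 genes with the smallest P could be named, with defining genes of high level for cell types.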

Additional observations from a re-analysis of the deposited data

Results flagged for a closer look

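In groups of 4, the highest or lowest mouse was set against the others with Dixon's gap test at its 95% limit. Of 46 sets of BLM values examined, 3 passed it, where chance gives about 1 in 20. Sdhd, a membrane anchor of complex II, passed with a ratio of 0.852, because BLM 3 had 117.5 CPM and the other BLM mice 106 to 107 CPM. The summed CPM of the mitochondrial biogenesis regulators passed with a ratio of 0.906, with BLM 1 at 309.5 CPM and the other BLM mice at 299 to 300 CPM. The summed CPM of the pericyte markers passed with a ratio of 0.843, with BLM 3 at 558 CPM and the other BLM mice at 732 to 764 CPM. The groups of 3 BLM+HBO mice were too small for this comparison.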

How the results depend on the processing

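The number of members at adjusted P below 0.05 was 0 by edgeR and 1 (Cox6a2) with DESeq2, with no filter on low counts and without BLM+HBO 2, and it ranged from 0 to 1 when single mice were left out. The number of members lower at unadjusted P below 0.05 was 1 (Ndufv3), and 0 with upper-quartile factors, with no filter and with the replicate block, and 0 to 1 without single mice. The log2 fold change of Atp5a1 turned to 0.00567 with upper-quartile factors. Without single mice, the log2 fold changes that turned ranged from -0.0530 to 0.197 for Cox4i2, -0.149 to 0.0638 for Cox6b1, -0.0147 to 0.102 for Cox7b, -0.0400 to 0.0779 for Cox8a, -0.124 to 0.0762 for Uqcr10 and -0.0657 to 0.0134 for Atp5a1. Of 465 alternative values of 31 named genes, 439 kept direction and side of P of 0.05, 15 (Cox8b and Ndufv3) passed 0.05, and 11 turned. The cause was not tested. Same-numbered mice of the groups had correlations of -0.008, -0.066 and 0.161, so the numbers were not taken to pair them, and the replicate block left 2 members higher and 0 lower at P below 0.05. Cox7b2 and Cox8c, with 2 and 0 reads in all, could not be compared between the groups at this depth.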
